A study of Homo sapiens with 12 samples.

Results

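The genes described here are 10 that are read together as the switch between epithelial and mesenchymal states: the cadherins CDH1 and CDH2, the filament gene VIM, the transcription factors ZEB1, ZEB2, SNAI1, SNAI2 and TWIST1, and the splicing regulators ESRP1 and ESRP2. They were taken by symbol from the deposited count table, in which all 10 were found among 61541 genes. RNA sequencing was done on 12 libraries labelled as A549, an established human lung adenocarcinoma line, 14 days after transduction, in 4 groups of 3 libraries. The monoculture control, grown alone, carried a non-targeting guide (NTC) and had no treatment, and the co-cultured control was the same genotype in co-culture. The monoculture knockout carried a Cas9-directed knockout of TYMS (TS-KO), which encodes the enzyme that supplies thymidylate for making DNA, and the co-cultured knockout was that genotype in co-culture. The series text names parental A549 as the company of the co-cultured knockout cells, in which their proliferation returned. The sources used here do not give the partner of the co-cultured control, whether partners were removed before RNA was taken, or whether the knockout was a pool or a clone.

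In the epithelial state, cells are joined by E-cadherin, the product of CDH1, and ESRP1 and ESRP2 direct the splicing of epithelial isoforms. In the epithelial-mesenchymal transition (EMT), factors of the SNAI, ZEB and TWIST families repress CDH1 and other epithelial genes by binding E-box motifs, while N-cadherin (CDH2) and vimentin (VIM) become abundant. The ZEB factors and the microRNAs of the miR-200 family repress each other, and lung carcinoma lines are known to span the range between the states.

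Library totals ran from 14921371 to 35723762 counts, and 16768 genes passed the filter on low counts and were tested. TYMS, the targeted gene, stood at 95.4 ± 5.26 CPM (counts per 1e+06 counts of the library, TMM-scaled; SD, n = 3) in the monoculture control and 93.4 ± 2.67 in the co-cultured control. The knockout levels were 20.8 ± 0.547 in monoculture and 11.04 ± 0.36 in co-culture, so this gene follows the labels. A second check did not: A549 is known to have lost CDKN2A, CDKN2B and MTAP, and these 3 genes summed to 122 to 165 CPM in the 6 libraries labelled control but to 0.302 to 0.745 CPM in the 6 labelled knockout. The libraries labelled control therefore go against the A549 label at these genes. In every comparison of knockout with control below, the edit of TYMS and a difference in the background of the cells cannot be told apart. Keratins were present in all 12 libraries. From monoculture control to monoculture knockout the mean of KRT7 went from 1908 to 5946 CPM and KRT8 from 7161 to 3723. KRT18 went from 3053 to 2260 CPM and KRT19 from 1738 to 255. With CDH1 and EPCAM these 6 epithelial markers summed to 10900 to 17800 and 9880 to 13700 CPM. Only EPCAM, an epithelial adhesion gene, was under 1 CPM in the monoculture knockout, at 0.398 to 0.912 CPM against 94.3 to 119 CPM in the monoculture control. Summed markers of other cell types were low in every library, at 14.3 to 34.5 CPM for 8 fibroblast genes (largely COL1A1), 1.79 to 8.16 CPM for 7 immune genes (CD3E at 0 in all 12) and 0.254 to 2.79 CPM for 5 endothelial genes. Their part in the results was not tested.

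Grown alone, the libraries labelled knockout stood at the mesenchymal end of these genes and the libraries labelled control at the epithelial end. CDH2, VIM, ZEB1, ZEB2 and SNAI2 were higher in the knockout, CDH1, SNAI1, ESRP1 and ESRP2 were lower, and TWIST1 did not pass the test. In this comparison 9 of the 10 genes were called, that is, had an adjusted p-value under 0.05 in edgeR's quasi-likelihood test. The background was high, since 56.6% of all tested genes were called (28% higher and 28.6% lower). Likewise 9 of the 10 had no overlap between the 3 knockout and the 3 control libraries, against 65.2% of tested genes. The count by itself is thus no result about these genes, and the sizes of the differences carry the description. ESRP1, ESRP2, SNAI2 and, for the most part, ZEB1 and ZEB2 had enough counts to be tested in 1 genotype only.

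**Figure D1:**
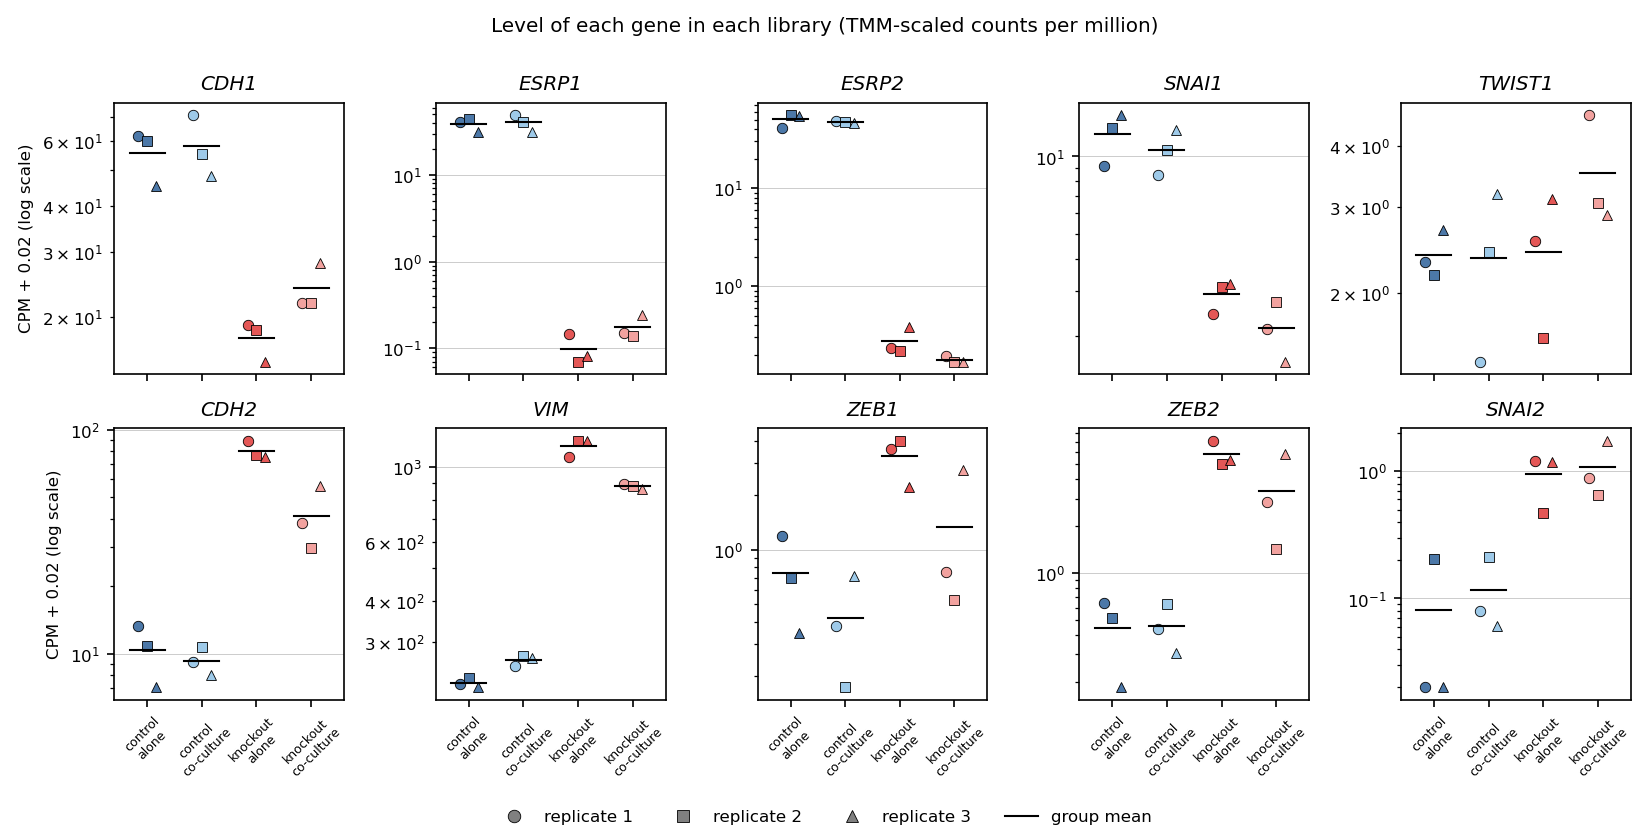
Each panel plots 1 gene: every point is 1 library, its shape the replicate number and its colour the group, the horizontal line is the mean of 3 libraries, and the vertical axis is TMM-scaled CPM plus an offset of 0.02 on a log scale that differs between panels. ESRP1 and ESRP2 lie above 30 CPM in all 6 control libraries and under 0.5 CPM in all 6 knockout libraries, and VIM lies at 220 to 274 CPM against 862 to 1201 CPM.

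Among the transcription factors, ZEB1, which represses CDH1 and the miR-200 genes, was scarce in all groups. Its gene lies at chr10:31318495-31529814 on the plus strand (GRCh38, ENSG00000148516). Lone control libraries held 1.18, 0.677 and 0.328 CPM for replicates 1 to 3, from 19, 11 and 6 counts. Lone knockout libraries held 3.59, 3.98 and 2.19 CPM, and co-cultured knockout libraries 0.732, 0.506 and 2.72 CPM. All 3 monoculture knockout libraries were above every control library, and in co-culture only replicate 3 of the knockout stayed at that height. Its log2 fold change in the monoculture knockout was 2.18 (SE 0.64, adjusted p = 0.0114). That call rests on few counts, and without replicate 3 of the monoculture control the change was 1.79 with an adjusted p of 0.0574.

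ZEB2 (chr2:144364364-144524583, minus strand, ENSG00000169554), its paralogue with the same kind of target, was also higher in the knockout. It was at 0.619, 0.492 and 0.164 CPM in the monoculture control and at 0.415, 0.612 and 0.285 CPM in the co-cultured control. In the monoculture knockout it was at 7.06, 4.97 and 5.29 CPM, and in the co-cultured knockout at 2.84, 1.4 and 5.78 CPM. The 6 knockout libraries were all above the 6 control libraries, and the co-cultured knockout again spread widely, with replicate 3 highest. The log2 fold change of the monoculture knockout was 3.77 (SE 0.56, adjusted p = 9.45e-05). Counts behind ZEB2 were 3 to 16 in the control libraries and 47 to 167 in the knockout libraries.

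The miR-200 family, which targets both ZEB transcripts, is shown here because the host transcript of one of its clusters was among the genes measured. The mature sequences below are from RefSeq (GRCh38.p14), 5′ to 3′, with the seed (bases 2 to 8) in capitals, and they fall into 2 seed groups. The first 3 share AAUACUG and the last 2 share AACACUG.
hsa-miR-200b-3p (chr1:1167160-1167181, plus strand): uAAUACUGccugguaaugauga
hsa-miR-200c-3p (chr12:6963742-6963764, plus strand): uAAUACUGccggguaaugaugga
hsa-miR-429 (chr1:1169055-1169076, plus strand): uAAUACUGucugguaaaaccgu
hsa-miR-200a-3p (chr1:1167916-1167937, plus strand): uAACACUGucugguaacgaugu
hsa-miR-141-3p (chr12:6964155-6964176, plus strand): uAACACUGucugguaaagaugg
MIR200CHG, the host transcript of miR-200c and miR-141, had 120 counts over the 3 monoculture control libraries and 0 over the 3 monoculture knockout libraries. Against a floor of 3 counts per library it was at least 15.3-fold higher in the monoculture control. In co-culture it had 124 counts in the control and 1 in the knockout, a ratio of 153 (95% exact counting interval 27 to 6110). This gene is named from the list of EMT regulators after its values were seen, and mature microRNAs are not measured by these libraries.

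SNAI1, which encodes the repressor Snail, went the other way from ZEB1, ZEB2 and SNAI2. It lies at chr20:49982999-49988886 on the plus strand (ENSG00000124216). It was at 9.16, 12.9 and 14.5 CPM in the monoculture control, 8.42, 10.6 and 12.7 CPM in the co-cultured control, 2.41, 3.08 and 3.16 CPM in the monoculture knockout, and 2.11, 2.68 and 1.57 CPM in the co-cultured knockout. Every knockout library was below every control library. In the monoculture knockout SNAI1 fell by 2.08 on the log2 scale (SE 0.27, adjusted p = 3.34e-05).

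SNAI2, which encodes Slug (chr8:48917604-48921740, minus strand, ENSG00000019549), was close to undetected in control cells. The monoculture control libraries held 0, 3 and 0 counts and the co-cultured control libraries 1, 5 and 1. The monoculture knockout libraries held 28, 9 and 19 counts and the co-cultured knockout libraries 20, 21 and 46. The knockout counts were all above the control counts, at 0.448 to 1.72 CPM. The ratio of the scaled counts was 15.7 in the monoculture groups (95% exact counting interval 5.11 to 78.6) and 10.0 in the co-cultured groups (4.67 to 25.7). These intervals cover counting error only. The model gave a log2 fold change of 3.84 (SE 0.89, adjusted p = 0.00272) for the monoculture groups, and without replicate 2 of the monoculture control, the only one there with counts, it gave 7.38, a value that then depends on the model's prior.

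TWIST1, a basic helix-loop-helix factor (chr7:19020991-19117672, minus strand, ENSG00000122691), was the factor of the 5 with no call in any comparison. Lone control libraries were at 2.29, 2.15 and 2.68 CPM and monoculture knockout libraries at 2.54, 1.59 and 3.1 CPM, so the groups overlapped. The co-cultured control was at 1.42, 2.41 and 3.18 CPM and the co-cultured knockout at 4.61, 3.04 and 2.87 CPM. The log2 difference between the genotypes in monoculture was 0.01 (95% interval -0.71 to 0.74, adjusted p = 0.975), and its sign turned with the scaling. Changes within that interval are not excluded by these libraries.

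The splicing regulators showed the largest differences of the 10. ESRP1 (chr8:94641074-94707466, plus strand, ENSG00000104413) was at 41.0, 43.6 and 31.0 CPM in the monoculture control and at 49.0, 41.4 and 31.6 CPM in the co-cultured control. In the knockout it was down to single counts: 3, 1 and 1 in the monoculture libraries and 3, 4 and 6 in the co-cultured libraries. No knockout library came near a control library. The control level was 460-fold that of the knockout in the monoculture groups (95% exact counting interval 197 to 1420) and 256-fold in the co-cultured groups (149 to 481). The fitted log2 fold change of the monoculture knockout was -8.77 (SE 0.35, adjusted p = 1.36e-09).

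ESRP2 (chr16:68229111-68238102, minus strand, ENSG00000103067), the paralogue with overlapping targets, behaved alike. It was at 40.8, 55.4 and 54.8 CPM in the monoculture control, 48.0, 47.5 and 46.4 CPM in the co-cultured control, and had 5, 4 and 6 counts in the knockout grown alone, against 4, 5 and 4 counts in its co-culture. The control level was 203-fold (123 to 363) and 304-fold (177 to 571) that of the knockout in the lone and co-cultured groups. The fitted log2 fold change of the monoculture knockout was -7.62 (SE 0.24, adjusted p = 2.58e-10). In the co-cultured knockout, ESRP1 stood at 0.293% to 0.55% and ESRP2 at 0.315% to 0.364% of the mean of the co-cultured control, and EPCAM at 0.147% to 0.51%.

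CDH1 and CDH2 exchanged places. CDH1 (chr16:68737225-68835548, plus strand, ENSG00000039068) was at 61.9, 60.1 and 45.3 CPM in the monoculture control, 70.7, 55.4 and 48.4 CPM in the co-cultured control, 19.0, 18.4 and 15.1 CPM in the monoculture knockout, and 21.8, 21.8 and 28.1 CPM in the co-cultured knockout. All knockout libraries were below all control libraries, but E-cadherin RNA was never near 0, unlike that of the ESRP genes. In the monoculture knockout CDH1 fell by 1.67 on the log2 scale (SE 0.19, adjusted p = 9.39e-06), a 3.18-fold difference.

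CDH2 (chr18:27950966-28177446, minus strand, ENSG00000170558), which encodes the N-cadherin of neural and mesenchymal cells, was at 13.3, 10.8 and 7.04 CPM in the monoculture control and at 9.13, 10.7 and 8.02 CPM in the co-cultured control. It was at 89.2, 77.0 and 75.3 CPM in the monoculture knockout and at 38.2, 29.5 and 56.0 CPM in the co-cultured knockout. The groups formed 3 levels, with both control groups lowest, the co-cultured knockout between and the monoculture knockout highest, without overlap between the levels. The log2 fold change of the monoculture knockout was 2.96 (SE 0.27, adjusted p = 1.27e-06).

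The ratio of the 2 cadherins, as log2 CDH2 over CDH1 within each library, put each group on 1 side of zero. It was -2.45 ± 0.23 (SD, n = 3) in the monoculture control, -2.63 ± 0.29 in the co-cultured control, 2.20 ± 0.13 in the monoculture knockout and 0.74 ± 0.28 in the co-cultured knockout. By library, the co-cultured knockout gave 0.80, 0.43 and 0.99, and the monoculture knockout 2.23, 2.06 and 2.31. The co-cultured knockout therefore lay apart from the monoculture knockout by more than the spread of either, still on the N-cadherin side. The ratio has no test of its own, and the 2 control groups overlapped. It is a ratio of CPM, scaled neither for exon length (6177 bases for CDH1, 4950 for CDH2) nor for transcript GC content (50.1% and 45%). Zero therefore marks equal CPM and not equal abundance.

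**Figure D2:**
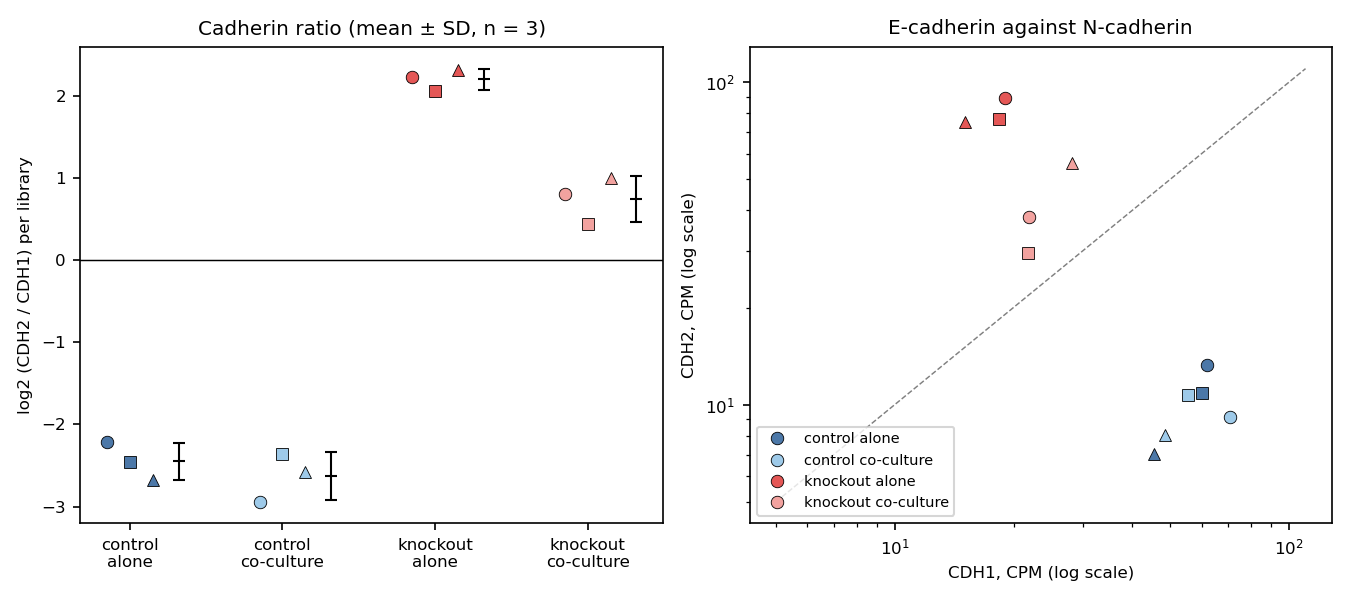
The left panel plots log2 CDH2 over CDH1 for each library (points, with shape as the replicate number) with the mean and SD of 3 libraries beside them. The right panel plots CDH2 against CDH1 in CPM on log axes with a dashed line of equal CPM. All 6 control libraries lie below the line and all 6 knockout libraries above it, the co-cultured knockout (0.74 ± 0.28) nearer to it than the monoculture knockout (2.20 ± 0.13).

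VIM (chr10:17228259-17237593, plus strand, ENSG00000026025), the intermediate filament of mesenchymal cells, was abundant in all libraries. The monoculture control was at 225, 235 and 220 CPM and the co-cultured control at 255, 274 and 270 CPM. The monoculture knockout was at 1073, 1200 and 1201 CPM and the co-cultured knockout at 890, 880 and 862 CPM. No 2 groups overlapped, and the co-cultured knockout lay below the monoculture knockout. The log2 fold change of the monoculture knockout was 2.35 (SE 0.12, adjusted p = 9.14e-09), a 5.11-fold difference.

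Per kilobase of exon, VIM was the most abundant of the 10 in each group, at 44.0 CPM per kb in the monoculture control and 225 CPM per kb in the monoculture knockout. In the monoculture control ESRP2 (9.04 CPM per kb), CDH1 (9.03), ESRP1 (7.9) and SNAI1 (7.23) followed, and neighbours in that order overlapped. CDH2 (2.1 CPM per kb) and TWIST1 (1.17) came next without overlap, and ZEB1, SNAI2 and ZEB2 were under 0.1 CPM per kb. In the monoculture knockout CDH2 took the second place (16.3 CPM per kb), above CDH1 (2.83) and SNAI1 (1.71), while ESRP2 and ESRP1 were last at 0.0464 and 0.0162 CPM per kb. The 2 ZEB genes stayed below TWIST1 in all 4 groups on this scale. Exons of all members except SNAI1, SNAI2 and ESRP1 overlap a gene on the other strand (VIM-AS1, ZEB1-AS1, ZEB2-AS1, NFATC3 for ESRP2, and unnamed genes), and as the strand setting of the counting is not given, reads of such partners cannot be told apart.

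**Figure D3:**
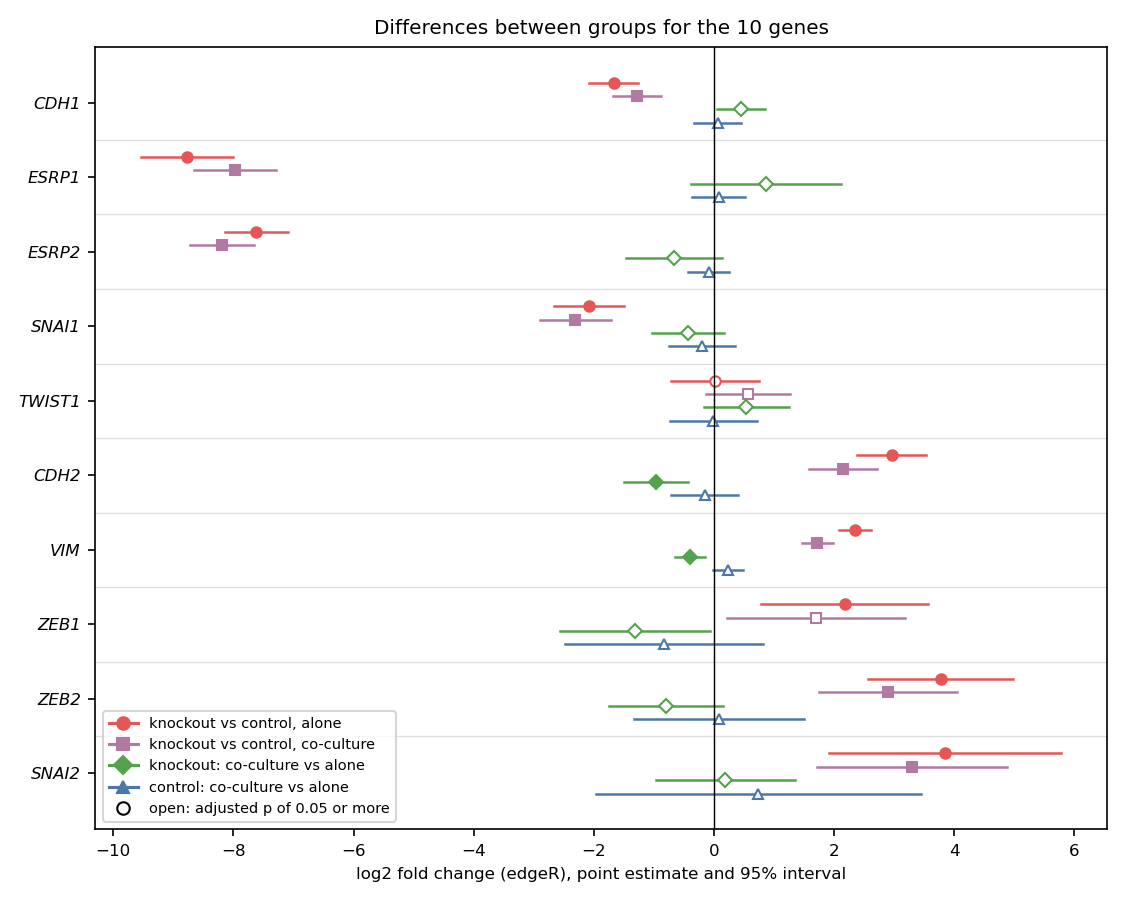
Points are log2 fold changes from edgeR for the 10 genes in 4 comparisons and lines are 95% intervals; filled points have an adjusted p-value under 0.05 and open points do not. The knockout differences reach from -8.77 (ESRP1) to 3.84 (SNAI2) in the monoculture groups, while the co-culture differences lie between -0.83 and 0.74 in the control and between -1.31 and 0.87 in the knockout.

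Co-culture of the knockout cells went with lower CDH2 and VIM, while the ESRP genes stayed at single counts. In this comparison the return of growth, the presence of partners and any RNA left from partners cannot be told apart. CDH2 fell by 0.97 on the log2 scale (SE 0.24, adjusted p = 0.0271) and VIM fell by 0.40 (SE 0.12, adjusted p = 0.0455). These 2 of 10 genes were called, against 11.4% of all tested genes (5.97% higher and 5.4% lower). In 4 of the 10 (CDH1, CDH2, VIM and ESRP2) the 3 co-cultured libraries did not overlap the 3 monoculture ones, against 31.5% of tested genes. For ESRP2 this holds only after scaling, since its counts were 4, 5 and 4 in co-culture against 5, 4 and 6. Both calls were near the threshold and depended on single libraries. CDH2 was no longer called on leaving out any 1 of the 6 knockout libraries except replicate 3 of the co-cultured knockout (adjusted p = 0.056 to 0.126), with library size only (-1, adjusted p = 0.0815), with the replicate block (-0.96, adjusted p = 0.0537) and when only these 2 groups were fitted (-0.97, adjusted p = 0.0706). VIM was no longer called on leaving out any 1 of the 6 (adjusted p = 0.0554 to 0.153), with RLE scaling (-0.34, adjusted p = 0.14), without the low-count filter (-0.27, adjusted p = 0.528), with the replicate block (-0.40, adjusted p = 0.0888) and with these 2 groups alone (-0.41, adjusted p = 0.0999).

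The sum of 7 immune cell markers was higher in the co-cultured than in the monoculture knockout, largely through CD14 and CD68. In the co-cultured knockout 5 of the 7 were under 1 CPM in every library, 2 of them at 0, and only 3 of the 7 were tested. The 7 immune cell markers summed to 1.79 to 2.13 CPM in the monoculture knockout and 5.63 to 8.16 CPM in the co-cultured knockout, against 5.82 to 7.81 and 2.85 to 5.05 CPM in the monoculture and co-cultured control, with CD3E at 0 in all 12 libraries. CD14, a monocyte receptor, rose from 0.865 ± 0.0612 to 3.25 ± 0.85 CPM between the knockout groups (log2 fold change 1.91, adjusted p = 0.00563), and the macrophage marker CD68 rose from 0.892 ± 0.0398 to 2.98 ± 0.526 CPM (1.73, adjusted p = 0.00637). The 8 fibroblast markers summed to 29.7 to 34.5 and 22.1 to 29.3 CPM in these groups, and the 5 endothelial markers to 0.254 to 0.547 and 0.302 to 0.634 CPM. Their part in the co-culture difference was not tested.

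The other members did not pass the test in the co-cultured against the monoculture knockout. CDH1 was 0.45 higher on the log2 scale (95% interval 0.05 to 0.85, adjusted p = 0.126), ZEB1 was at -1.31 (-2.56 to -0.07, adjusted p = 0.147) and ZEB2 at -0.80 (-1.75 to 0.15, adjusted p = 0.237). DESeq2 called CDH1 (0.50, adjusted p = 0.0415), and without the low-count filter ZEB1 was called (-1.21, adjusted p = 0.0077). SNAI1 was at -0.43 (adjusted p = 0.302), SNAI2 at 0.19 (0.834) and TWIST1 at 0.54 (0.278). For the ESRP genes the co-cultured and monoculture knockout had 13 and 5 counts (ESRP1) and 13 and 15 counts (ESRP2), so the scaled ratio of co-culture to monoculture was 1.87 for ESRP1 (95% exact counting interval 0.626 to 6.71) and that of monoculture to co-culture 1.6 for ESRP2 (0.711 to 3.66). A difference in either gene between the 2 knockout groups was not detectable at this depth.

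Replicate 3 of the co-cultured knockout stood apart from replicates 1 and 2. It was the highest of the 3 for CDH1, CDH2, ZEB1, ZEB2, SNAI2 and ESRP1, and the lowest for VIM, SNAI1 and TWIST1. Its genes deviated from their group means with transcript GC content at a rank correlation of -0.75, against 0.34 and 0.73 in replicates 1 and 2. The trend was not particular to that library, since replicates 1 and 3 of the other groups also differed in sign, in reverse order. Their correlations were -0.62 and 0.58 in the monoculture control, -0.48 and 0.58 in the co-cultured control, and -0.54 and 0.53 in the monoculture knockout. The transcripts of ZEB1 (42.4% GC), ESRP1 (42.6%), CDH2 (45%), ZEB2 (45.4%) and SNAI2 (46.7%) are the poorest in GC of the 10. Without replicate 3 of the co-cultured knockout, 3 members were called in place of 2, while the genes called overall rose from 1907 to 5681. CDH2 fell by 1.25 (adjusted p = 0.000929), ZEB1 fell by 2.42 (0.00189) and ZEB2 fell by 1.47 (0.00716). With offsets for GC content, 4 were called, with CDH1 at 0.47 (adjusted p = 0.0221), CDH2 at -0.65, VIM at -0.52 and SNAI1 at -0.64 (0.0176). Overall 4853 of the 16768 tested genes were called with these offsets, so neither count of members is a result by itself. In these bulk libraries, fewer cells of a type and less RNA per cell cannot be told apart.

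Between the co-cultured genotypes 8 of the 10 genes were called, against 49.4% of all tested genes (24.1% higher and 25.3% lower), and 8 of 10 did not overlap, against 55.4%. CDH1 (-1.28, SE 0.18, adjusted p = 8.37e-05), SNAI1 (-2.31, 1.54e-05), ESRP1 (-7.97, 1.64e-09) and ESRP2 (-8.19, 3.18e-10) were lower in the knockout. CDH2 (2.15, adjusted p = 1.82e-05), VIM (1.72, 1.36e-07), ZEB2 (2.90, 0.000579) and SNAI2 (3.30, 0.00223) were higher. ZEB1 stood at 1.70 (95% interval 0.21 to 3.19, adjusted p = 0.0566) and TWIST1 at 0.56 (-0.13 to 1.26, adjusted p = 0.165). ZEB1 depended on single libraries and settings: it was called with DESeq2 (1.69, adjusted p = 0.0197), RLE scaling (1.68, 0.0449), GC offsets (1.55, 0.0157), the replicate block with GC offsets (1.51, 0.0262) and no low-count filter (1.76, 0.000136). It was also called without replicate 3 of the co-cultured control (2.41) and without replicate 1 (1.95) or replicate 2 (2.09, adjusted p = 0.0154) of the co-cultured knockout, and it was at 0.60 (0.4) without replicate 3 of the co-cultured knockout.

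Co-culture of the control cells changed none of the 10 genes by the test (0 also at an unadjusted p under 0.05), and edgeR called 0 of the 16768 genes, with 540 at an unadjusted p under 0.05 (DESeq2 also called 0, with 504). VIM was 0.23 higher (95% interval -0.02 to 0.49), and it was the 1 member whose groups did not overlap, against 7.39% of tested genes. CDH1 was at 0.06 (-0.33 to 0.45), CDH2 at -0.16 (-0.71 to 0.40) and ESRP1 at 0.08 (-0.36 to 0.52). The difference between the co-culture effects of the 2 genotypes was tested directly as an interaction in edgeR. There 1.8% of tested genes (1.51% higher and 0.286% lower) and none of the 10 were called. Of the 10, 2 (CDH2 and VIM) had unadjusted intervals that left out 0, beside 3135 of the 16768 tested genes at an unadjusted p under 0.05. Of the genes called in the interaction 84.1% were higher, but 33.1% without replicate 3 of the co-cultured knockout (1201 higher and 2422 lower) and 55.9% with GC offsets. VIM came closest, at -0.63 (SE 0.17, adjusted p = 0.0832), and CDH2 was at -0.81 (SE 0.35, adjusted p = 0.248). VIM was called in the interaction with DESeq2 (-0.55, adjusted p = 0.0265), library size only (-0.74, 0.0279) and GC offsets (-0.74, 0.00198). Without replicate 3 of the co-cultured knockout VIM (-0.62, adjusted p = 0.0376) and CDH2 (-1.09, 0.0213) were both called, while the genes called overall rose from 301 to 3623.

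Other genes of the pathway were taken from 5 lists that share none of the 10, and their counts stand against 56.6% of all tested genes called in the monoculture knockout (28% higher and 28.6% lower). Of 30 epithelial genes 29 were tested, and in the monoculture knockout 24 were lower, 3 higher and 2 not called (93.1% called), with a median log2 fold change of -2.81 against 0.09 over all tested genes. The junction protein CLDN7 was at 302 ± 71.0 CPM in the monoculture control and had 6 counts over the 3 monoculture knockout libraries, a ratio of 3060 (95% exact counting interval 1400 to 8330). The membrane protease ST14 was at 395 ± 86.7 CPM and had 9 counts, a ratio of 2660 (1400 to 5830). SPINT1, the inhibitor of that class of protease, was at 195 ± 34.9 CPM in the monoculture control and 3.24 ± 0.362 CPM in the monoculture knockout, and fell by 5.91 on the log2 scale (SE 0.18, adjusted p = 2.58e-10). The 3 higher genes, named here after their values were seen, were KRT7 (1.64), CLDN1 (2.93) and DSG2 (1.11). The call of DSG2 was lost with library size only (1.24, adjusted p = 0.0557) and without replicate 3 of the monoculture control (0.83, adjusted p = 0.138).

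Of 30 mesenchymal genes 26 were tested, and 18 were higher, 3 lower and 5 not called in the monoculture knockout (80.8% called, against 56.6% of all tested genes), with a median of 1.61. The actin-binding TAGLN rose from 9.93 ± 1.86 CPM in the monoculture control to 211, 296 and 330 CPM in the 3 knockout libraries (log2 fold change 4.81, SE 0.25, adjusted p = 8.93e-09), and the receptor kinase AXL from 67.6 ± 1.66 to 508 ± 19.9 CPM (2.91, SE 0.14). The 3 lower genes, also named after their values were seen, were COL6A1 (-0.98), COL6A2 (-2.08) and ITGA5 (-0.80).

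Among 30 further EMT regulators, of which 26 were tested, 8 were higher and 9 lower (65.4% called, against 56.6% of all tested genes), with a median of -0.00 and a mean of 0.12. SMAD3, a transducer of TGF-beta signals, was higher (2.11, SE 0.13, adjusted p = 3.5e-08), as was the ligand TGFB2 (4.30, SE 0.34), while SOX9 was lower (-1.84, SE 0.13). Of 24 other cadherins and catenins only 12 were tested, with 4 higher and 4 lower (66.7% called) and a median of -0.21. CDH3, the P-cadherin of epithelia, was at 247 ± 41.8 CPM in the monoculture control and 1.25 ± 0.0993 CPM in the monoculture knockout. CDH22 was lower (-5.45, SE 0.39), and the alpha-catenin CTNNA2 had 1 count in the monoculture control and 140 in the monoculture knockout, a ratio of 118 (20.8 to 4690). Of 20 splicing regulators 18 were tested, with 6 higher, 5 lower (61.1% called) and a median of 0.03. HNRNPM (-0.97, SE 0.12) and PTBP1 (-0.91, SE 0.17) were lower and RBM24 was higher (1.47, SE 0.27), each by less than the ESRP genes.

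**Figure D4:**
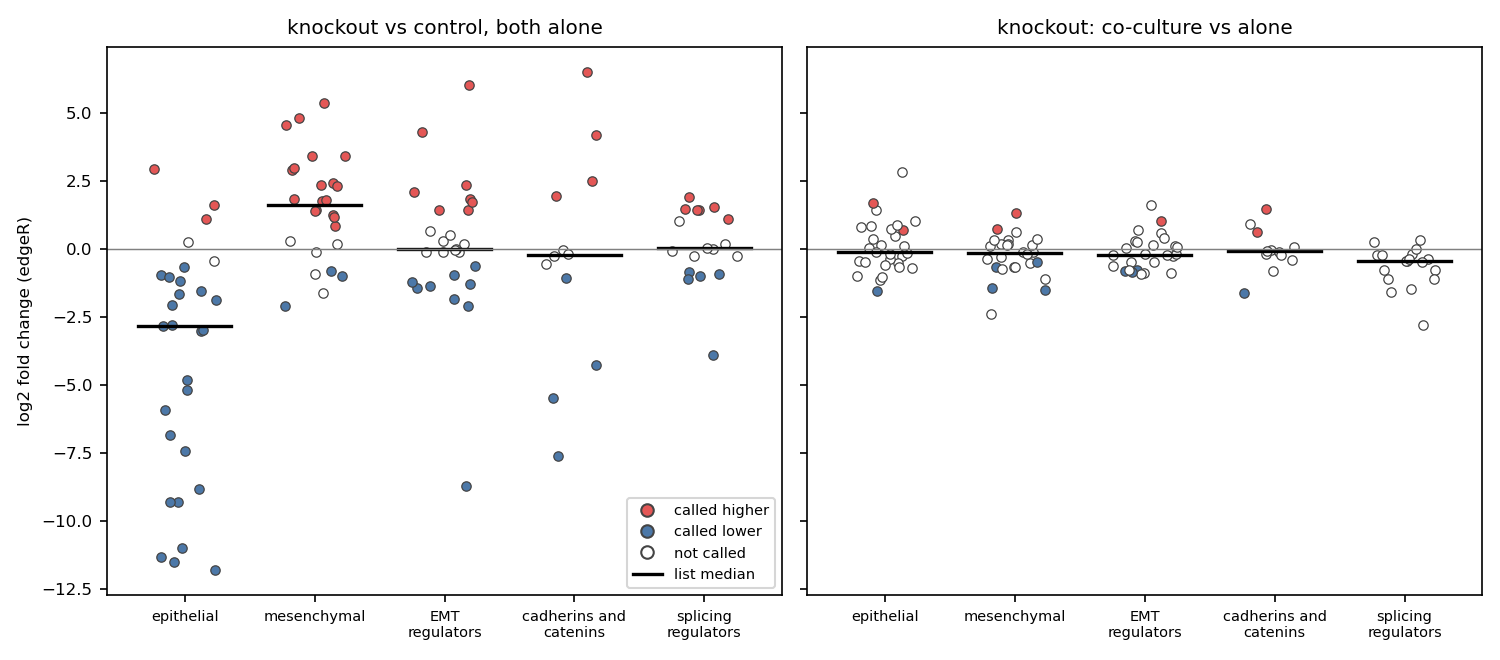
Each point is the log2 fold change of 1 tested gene of 5 lists, in the monoculture knockout against the monoculture control (left) and in the co-cultured against the monoculture knockout (right); filled points are called higher (red) or lower (blue), open points are not called, and the line is the list's median. Fitted values of genes at or near 0 counts in 1 group are not bounds. The medians of the epithelial and mesenchymal lists are -2.81 and 1.61 on the left and -0.09 and -0.14 on the right.

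In the co-cultured against the monoculture knockout, 10.3% of the tested epithelial genes, 23.1% of the mesenchymal genes, 15.4% of the regulators, 25% of the cadherins and catenins and 5.56% of the splicing regulators were called, against 11.4% of all tested genes. Of the epithelial genes SPINT1 rose by 1.69 (SE 0.16, adjusted p = 6.87e-05), from 3.24 to 10.5 ± 0.698 CPM, ELF3 (named after its value was seen) rose by 0.70, and DSP, the desmosome's plakin, fell by 1.54 (SE 0.28, adjusted p = 0.00471). That list's median was -0.09 and its mean 0.11. Of the mesenchymal genes the matrix protein TNC (1.32, SE 0.21) and ITGA5 (0.73) rose, and the microfibril gene FBN1 (-1.51, SE 0.25), VCAN (-1.43), COL1A1 (-0.64) and AXL (-0.47) fell, with a median of -0.14. Of the regulators FOXQ1 rose (1.05, SE 0.22), and SOX9 (-0.76, SE 0.13), FOXC1 (-0.80) and SMAD2 (-0.85) fell, with a median of -0.20. CDH3 rose by 1.48 (SE 0.19, adjusted p = 0.000517), from 1.25 to 3.51 ± 0.277 CPM, CDH24 rose by 0.63, CDH6 fell by 1.62 (SE 0.30), and of the splicing regulators HNRNPM fell by 0.43 (adjusted p = 0.041), while MBNL1 was at -1.48 (adjusted p = 0.0556). ITGA5, VCAN, COL1A1, AXL, FOXC1, SMAD2 and CDH24 are named after their values were seen, and with only the 2 groups fitted VCAN, COL1A1, AXL, FOXC1, SMAD2, CDH24, ELF3, CDH6 and HNRNPM were no longer called. At offsets for GC content more were called in each list, 10 epithelial, 11 mesenchymal, 10 regulators, 5 cadherins and catenins and 9 splicing regulators. The whole table rose with them, from 1907 to 4853 of the 16768 tested genes. These higher counts are thus no result about the lists by themselves.

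Promoter sequence was searched for the E-box forms CACCTG and CAGGTG, which are reverse complements of each other and cannot overlap, over 300 bases around each start (250 before, 50 after) in the RefSeq table of GRCh38.p14. In that table, which covers 27305 genes, 24.1% of genes held at least 1 such match in some promoter. Of the 10 members 4 were in the table (CDH2, VIM, ZEB1 and ZEB2), and of these ZEB1 held matches, at 2 of its 7 starts. Of the epithelial list 17 genes were in the table and 12 held a match. Matches were in 4 of 20 mesenchymal genes, 5 of 25 regulators, 1 of 14 cadherins and catenins and 6 of 17 splicing regulators. A match describes the letters only and is not a binding site. The 250 bases before the start are given for the tested epithelial genes with at least 4 matches in the full window, and for the ZEB1 start with most, 5′ to 3′ on the gene's strand, with matches in capitals.
CLDN7 (chr17:7262479-7262728, minus strand): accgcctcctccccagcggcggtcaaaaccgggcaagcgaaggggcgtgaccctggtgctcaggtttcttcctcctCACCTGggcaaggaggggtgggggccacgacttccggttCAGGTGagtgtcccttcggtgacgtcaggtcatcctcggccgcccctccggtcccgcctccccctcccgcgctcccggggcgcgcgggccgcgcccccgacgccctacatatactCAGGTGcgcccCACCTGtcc
CRB3 (chr19:6464021-6464270, plus strand): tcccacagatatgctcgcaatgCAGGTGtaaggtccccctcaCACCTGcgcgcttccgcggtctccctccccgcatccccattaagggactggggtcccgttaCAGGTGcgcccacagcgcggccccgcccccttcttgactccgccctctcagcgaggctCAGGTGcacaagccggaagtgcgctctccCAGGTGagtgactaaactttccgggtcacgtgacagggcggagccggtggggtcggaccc
ZEB1 (chr10:31318966-31319215, plus strand): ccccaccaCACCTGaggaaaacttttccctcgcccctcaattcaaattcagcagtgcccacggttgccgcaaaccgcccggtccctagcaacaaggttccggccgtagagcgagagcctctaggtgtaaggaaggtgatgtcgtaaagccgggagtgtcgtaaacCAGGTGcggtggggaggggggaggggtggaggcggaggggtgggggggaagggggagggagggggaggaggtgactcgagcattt
The full windows held 5 matches for CLDN7, 5 for CRB3 and 3 for ZEB1, of which 4, 5 and 2 lie in the bases shown. CRB3, a polarity gene named for its promoter, was at 44.0 ± 10.2 CPM in the monoculture control and 5.58 ± 1.1 CPM in the monoculture knockout (log2 fold change -2.98, SE 0.26, adjusted p = 8.6e-07). CLDN7, with as many matches at 1 of its 2 starts and 0 at the other, went to nearly 0 in the same libraries.

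The genes whose log2 CPM followed the members most closely over the 12 libraries were taken from 10250 genes with a mean of at least 5 CPM. For CDH1 they were NR4A2 (Pearson r 0.988), ZNF250 (0.984) and TSC22D1 (0.983), and for CDH2 ANTXR1 (0.997) and DAPK1 (0.994). For ZEB1 they were GOLIM4 (0.936), TBC1D9 (0.931) and CYP24A1 (0.931), and for ESRP1 MAL2 (0.999), SLC43A3 (0.999) and GRHL2 (0.998). Between the genotypes in monoculture 56.6% of tested genes were called, so these values describe a shared separation of the genotypes first. They carry no test. ANTXR1, like CDH2, held an intermediate level in the co-cultured knockout, at 120, 104 and 187 CPM between 41.2 ± 5.73 CPM in the co-cultured control and 287 ± 30.8 CPM in the monoculture knockout. GRHL2, a transcription factor of epithelia, had 1026 counts in the monoculture control and 0 in the monoculture knockout, at least 133-fold higher in the control against a floor of 3 counts per library.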

How the data were processed

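RNA-seq counts were analysed for 12 libraries in 4 groups of 3. Per the submitters' processing notes the builds were GRCh38/hg38 and the tools FastQC, STAR 2.7.9a, featureCounts, R 4.2.1 and DESeq2 1.36.0. The authors deposited raw counts per Ensembl gene, which were used as they stood. The annotation and strand setting are not given in the sources used here. Symbols were found for 42045 of 61541 identifiers, and 58366 matched GENCODE 29, which gave positions, exon lengths and GC content.

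Counts were fitted in R 4.3.3 with edgeR 4.0.16 (filterByExpr, TMM, 4 group means over all 12 libraries, robust quasi-likelihood F-test). Adjustment was by Benjamini-Hochberg over the 16768 tested genes within each of 5 comparisons. SEs were derived from the log2 fold change and its F statistic. CPM are TMM-scaled, and ± is the SD over 3 libraries. The biological coefficient of variation was 22.1%. At the lowest total, 1 CPM is 14.9 counts.

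The alternatives were library size only, RLE scaling, no filter on low counts, a replicate block, offsets for GC content (lowess span 0.3), only the groups compared, leaving out each library, and DESeq2 1.42.0. Counting intervals (exact binomial) and floors cover counting error only. Replicates differed by more than counting noise (chi-square per gene 7.96 to 117), so each library was counted once. The labels do not say that replicates are separate cultures, so p-values measure only the spread between these libraries.

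The members, lists and tests were chosen with earlier results of these data known. The genes named are the members, TYMS, cell type markers, the 3 smallest p-values of each list in the monoculture knockout against control and the 2 smallest in the co-cultured against monoculture knockout, and for 4 members the 3 most correlated genes. Others are marked as chosen later. Some genes that this rule selects are not reported here.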

Additional observations from a re-analysis of the deposited data

Results flagged for a closer look

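For 3 genes of the lists the co-culture difference itself differed between the genotypes, by the interaction term of the edgeR model with adjustment over all tested genes. They were 1 of 29 tested epithelial genes, 1 of 26 mesenchymal genes and 1 of 12 cadherins and catenins. Of the 26 regulators and 18 splicing regulators 0 were called, and of all tested genes 1.8%. The count is thus no result about the lists. For SPINT1 the interaction was 1.83 (SE 0.22, adjusted p = 0.00109): it went from 3.24 ± 0.362 to 10.5 ± 0.698 CPM in the knockout on co-culture and was at 195 ± 34.9 and 177 ± 7.74 CPM in the control. For CDH3 it was 1.49 (SE 0.24, adjusted p = 0.00709), with 1.25 ± 0.0993 and 3.51 ± 0.277 CPM in the knockout and 247 ± 41.8 and 245 ± 25.7 CPM in the control. For FBN1 it was -1.75 (SE 0.38, adjusted p = 0.0353), with 75.0 ± 13.4 and 26.3 ± 8.42 CPM in the knockout and 3.21 ± 1.11 and 3.75 ± 0.472 CPM in the control. The call of FBN1 was lost with library size only (-1.82, adjusted p = 0.1), with the replicate block (-1.77, adjusted p = 0.0727) and on leaving out any library other than replicate 1 of the monoculture control or replicate 3 of the co-cultured knockout, and over the libraries left out in turn it ranged from -2.06 to -1.57. SPINT1 and CDH3 in the co-cultured knockout stayed far below their control levels.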

How the results depend on the processing

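Between the genotypes in monoculture, 9 members were called in each alternative except 8 without replicate 3 of the control and 8 with only the 2 groups, where SNAI2 was not tested. The genes called overall ranged from 7959 to 9858 over the compared libraries left out and reached 10541 with GC offsets. TWIST1, never called, turned sign with RLE scaling (-0.041), the replicate block (-0.0015) and DESeq2 (-0.040), and lay between -0.22 and 0.24 over the libraries left out. Library size only moved the median of all genes from 0.09 to 0.24.

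For the co-cultured against the monoculture knockout, the 1907 genes called became 3340 without the low-count filter, 4853 with GC offsets, 664 with only the 2 groups, 3347 with DESeq2, and 536 to 5681 over the libraries left out (lowest without replicate 1, highest without replicate 3 of the co-cultured knockout). The share higher was 52.5% with TMM, 69.7% with library size only, 71.5% with only the 2 groups, 75.7% without replicate 1 and 36.6% without replicate 3 of the co-cultured knockout (2078 higher and 3603 lower). Members called were 1 with library size only or RLE scaling, 4 with GC offsets, 0 with only the 2 groups, and 0 to 3 over the libraries left out. SNAI2 ranged from -0.33 to 0.48. Epithelial genes called were 7 with library size only and 10 with GC offsets (2 to 9 over the libraries left out), mesenchymal genes 11 (2 to 7), regulators 10 (2 to 13), cadherins and catenins 5 (2 to 5) and splicing regulators 9 (0 to 9); in the monoculture knockout against control the last had 7 to 11. The named genes DSP, FBN1, TNC, SOX9, SPINT1 and CDH3 kept their call in this comparison under library size only, RLE scaling, GC offsets, the 2 groups alone and DESeq2.

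In the control, 2 genes were called without the low-count filter and 0 otherwise. Members near 0 turned sign there: TWIST1 with library size only (0.045), no filter (0.015), GC offsets (0.038) and the 2 groups alone (0.0085), CDH1 (-0.018), ZEB2 (-0.011), ESRP1 (-0.033) and ESRP2 (0.011) with GC offsets. Over the libraries left out CDH1 ranged from -0.10 to 0.17, CDH2 from -0.38 to 0.059, ZEB2 from -0.33 to 0.45, SNAI2 from -0.26 to 4.28, TWIST1 from -0.29 to 0.23 and ESRP1 from -0.077 to 0.23. Interaction calls were 301, and 1342 without the filter, 1423 with GC offsets, 877 with DESeq2 and 117 to 3623 over the libraries left out; members called were 1 with library size only, GC offsets or DESeq2, and 0 to 2 over the libraries left out. There SNAI2 ranged from -4.08 to 0.46 and ZEB1 from -1.58 to 0.26.

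Replicate numbers did not pair the samples throughout. Deviations of same-numbered libraries correlated from -0.024 to 0.49 between the genotypes in monoculture and from -0.051 to 0.41 between the 2 control groups. With the co-cultured knockout they correlated from -0.54 to 0.079 (monoculture knockout) and from -0.52 to -0.17 (co-cultured control). There, replicate 1 of the monoculture knockout went with replicate 3 of the co-cultured knockout (0.61). With the replicate block, 1080 genes and 0 members were called for the co-cultured against the monoculture knockout, and 179 in the interaction. With the block and GC offsets together these were 4115 genes and 4 members, and 848 genes and 1 member, and in the control CDH1 (-0.018), TWIST1 (0.049), ESRP1 (-0.029) and ESRP2 (0.011) turned sign. The causes of these changes were not tested. Depth limits ZEB1, ZEB2 and SNAI2 in the control and the ESRP genes in the knockout.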
